A study of Mus musculus with 9 samples.

Results

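The genes described here are 34 genes of MYC-driven growth, glycolysis and nutrient transport, picked by symbol out of the 41978 genes in an RNA-seq table of mouse thymocytes. They were sorted by role into 4 transcription factors (Myc, Mycn, Max, Hif1a), 4 glucose and lactate transporters (Slc2a1, Slc2a3, Slc16a1, Slc16a3), 4 amino-acid transporters (Slc3a2, Slc7a5, Slc1a5, Slc38a2), 14 glycolytic enzymes and regulators (Hk1, Hk2, Gpi1, Pfkl, Pfkm, Pfkp, Pfkfb3, Aldoa, Tpi1, Gapdh, Pgk1, Pgam1, Eno1, Pkm), 3 genes that set the fate of pyruvate (Ldha, Ldhb, Pdk1) and 5 genes of mTORC1, polyamine, pyrimidine and iron supply (Mtor, Rptor, Odc1, Cad, Tfrc). All 34 were found and all 34 passed the filter for testing, which asked for at least 1 TPM (a read count divided by gene length and scaled to the same total in every sample) in at least 3 of the 9 samples. Mycn reached that level in 4 samples and Hk2 in 3, and every other member in all 9.

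The samples were semi-mature CD4 single-positive (SP4) thymocytes of Nur77-eGFP BAC Tg mice, in which a bacterial artificial chromosome carrying the Nr4a1 locus drives GFP, so that GFP reads out recent T cell receptor signaling. Every group was therefore reporter-transgenic, and the sort separated the groups by GFP alone. They were about 10% of the gated cells with the lowest (GFPlo), a medium (GFPmed) and the highest (GFPhi) fluorescence, 3 samples each. The sorted gate was live, CD25-, CD69+, CD24+, CD4+ and CD8-, with 10000 cells per sort, from mice that the study's general methods place at 3 to 10 weeks of age and of both sexes. The text of the study writes this gate once as CD24lo and elsewhere as CD24hi, and the labels call the samples biological replicates without naming mice, so p-values here measure the spread between these samples.

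MYC with its partner MAX binds E-box DNA and drives genes for ribosomes, nucleotides and nutrient uptake in T cells that grow, and HIF-1α, encoded by Hif1a, drives glucose transporters and glycolytic enzymes. Glucose enters through GLUT1 (Slc2a1) and GLUT3 (Slc2a3), is split by aldolase and oxidized to pyruvate, and pyruvate is turned to lactate by LDH or enters mitochondria unless pyruvate dehydrogenase kinase (Pdk1) blocks it. Lactate crosses the membrane through MCT1 (Slc16a1) and MCT4 (Slc16a3), and MCT4 is known as the exporter of strongly glycolytic cells. Thymocytes that have passed positive selection are small, mostly resting cells.

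Between 7465552 and 14943774 reads fell on genes per sample, and between 23486 and 29902 genes reached 1 TPM. Nr4a1, the check of the sort, averaged 217 ± 32.1 TPM (SD, n = 3) in GFPlo, 374 ± 28.6 in GFPmed and 840.1 ± 75 in GFPhi, with no overlap between groups. The markers of the labelled cell type were present in all samples. Cd4 had 582 ± 36.4 TPM in GFPlo and 474 ± 28.9 TPM in GFPhi, and the summed TPM of 8 SP4 markers was 6539 to 7772 in GFPlo and 6244 to 6921 in GFPhi. Of those 8 markers, Cd69, which is part of the gate, was lower in GFPhi (log2 fold change -0.79, adjusted p = 0.0142, limma), and 0 of the 8 passed without GFPlo replicate 2 or 3 or GFPhi replicate 3. The lowest read count of a member that passed a test was 33 reads, for Slc16a3 in GFPlo.

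The comparison of the ends of the GFP range asked whether the growth and glucose program follows self-reactivity as the reporter marks it. From GFPlo to GFPhi the lactate exporter gene Slc16a3 rose 3.69-fold, while the genes for the other lactate transporter (Slc16a1), GLUT3 (Slc2a3), aldolase A (Aldoa), phosphoglycerate mutase (Pgam1), pyruvate dehydrogenase kinase 1 (Pdk1) and the transferrin receptor (Tfrc) fell to between 0.580 and 0.724 of their GFPlo mean. Myc, Hif1a, Mtor and the amino-acid transporters did not pass. With limma on log2(TPM + 1), a call asked for a log2 fold change of 1 or more in size together with an adjusted p (Benjamini-Hochberg, over all genes tested) of 0.05 or less. By it 1 member was higher and 0 were lower, against 1.26% and 0.404% of all 30693 genes tested. At the adjusted p alone, 1 member (2.94%) was higher and 6 members (17.6%) were lower, against 2.38% and 1.51% of all genes. At an unadjusted p under 0.05, 3 members were higher and 16 lower, against 13.8% of all genes in either direction. Adding 1 before the logarithm makes the log2 fold change of a low gene such as Slc16a3 smaller than that of its TPM.

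The 3 GFPhi samples lay wholly below the 3 GFPlo samples in 16 of the 34 members (47.1%), against 9.92% of all genes, and wholly above them in 5 (Slc16a3, Hif1a, Slc3a2, Pfkfb3 and Odc1; 14.7%), against 8.26%. The log2 fold change was negative in 24 of 34 members (70.6%), against 59.4% of all genes, with a median of -0.19 over the members and -0.09 over all genes. Most members are abundant, and abundant genes are called more often. Among genes with a mean of at least 10 TPM, 6 of 28 members were lower at the adjusted p, against 3.15%, and 15 of 28 did not overlap in that direction, against 13.8%. At that level the median was -0.23 over the members and -0.04 over all genes. With 1 sample left out, the median over all genes tested lay between -0.16 (without GFPlo replicate 3) and -0.0028 (without GFPlo replicate 1). The calls of the 6 falls depended on the scaling, while their sizes moved little. With median-of-ratios scaling over all genes the log2 fold changes were -0.64 for Aldoa, -0.67 for Slc16a1, -0.53 for Pdk1, -0.49 for Slc2a3, -0.37 for Pgam1 and -0.43 for Tfrc, but none passed (adjusted p between 0.203 for Slc16a1 and 0.563 for Tfrc), and Slc16a3 passed (adjusted p = 0.0443). In limma-voom on solved reads with size factors, Aldoa and Slc16a1 passed. With size factors from genes at 10 TPM or more in every sample, a scaling chosen after seeing the data, all 6 passed.

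**Figure D1:**
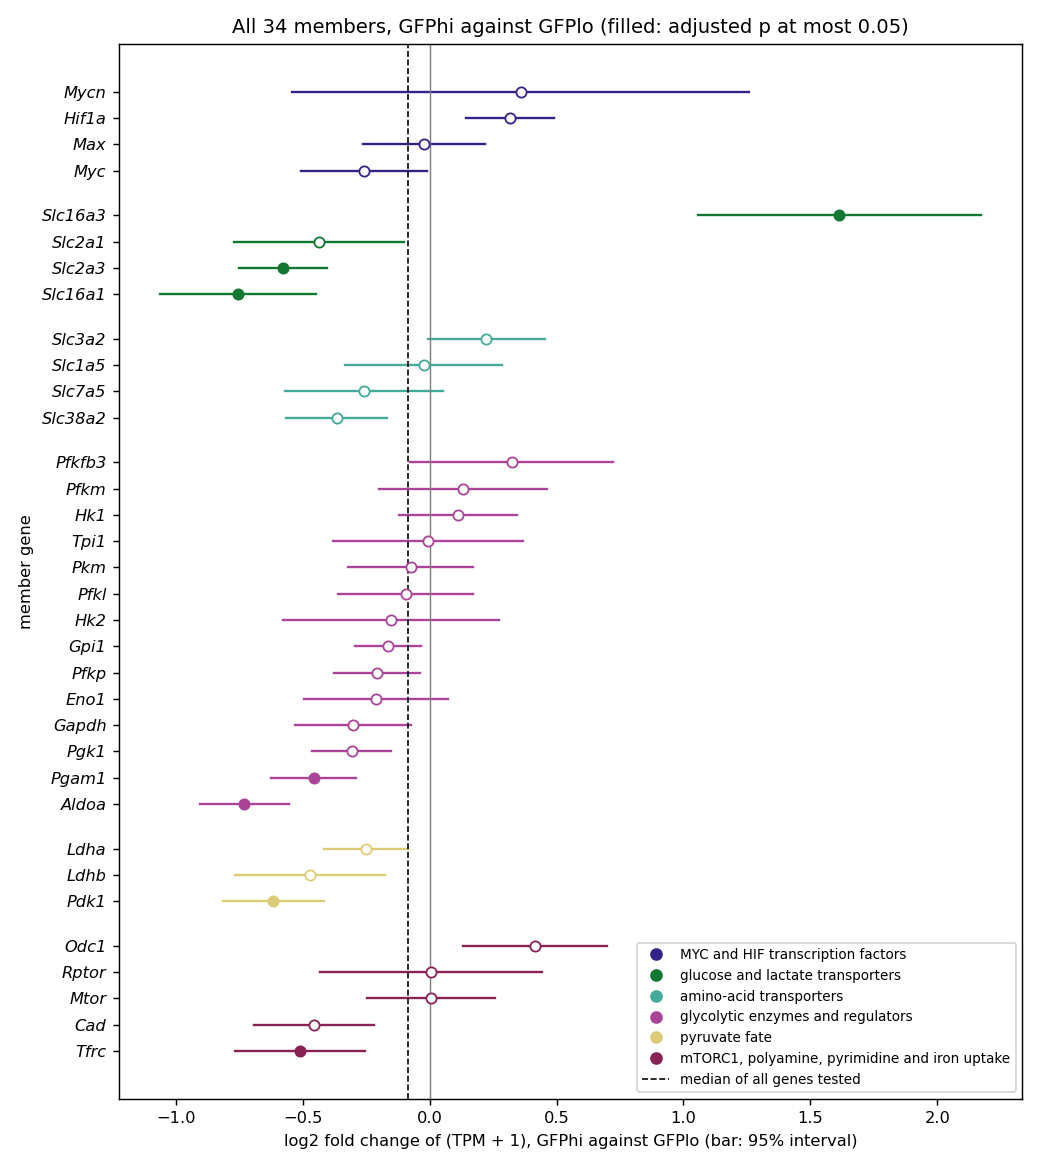
Log2 fold change of (TPM + 1) between GFPhi and GFPlo (x axis) for each of the 34 members (y axis, grouped by role and ordered by value), with 95% intervals from limma and 3 samples per group. Filled points have an adjusted p of at most 0.05: Slc16a3 lies far to the right, and 6 filled points lie left of the dashed line at the median of all genes tested (-0.09).

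Other properties of the sorted cells moved along the same axis. Of 16 cell cycle markers, 13 were higher in GFPhi at the adjusted p (10 with a log2 fold change of at least 1) and 0 were lower, and their summed TPM was 577 to 615 in GFPlo, 747 to 906 in GFPmed and 941 to 1195 in GFPhi. Mki67, for example, had 3.13 ± 0.596 TPM in GFPlo and 21.6 ± 4.19 TPM in GFPhi. Of 5 regulatory T cell markers, 4 were higher (summed TPM 86.4 to 94.1 in GFPlo, 112 to 167 in GFPmed and 211 to 249 in GFPhi), among them Foxp3 with 6.75 ± 0.249 TPM in GFPlo and 15.7 ± 2.38 TPM in GFPhi. Ikzf2, another of the 4, does not mark regulatory T cells alone. The study found its product, HELIOS, also in Foxp3-negative SP4 thymocytes of hosts that express the antigen. Of 7 tested markers of double-positive thymocytes, the stage before, 3 were lower (Dntt, Cd8a and Cd8b1), and their summed TPM, which is mostly Cd1d1, was 336 to 372 in GFPlo, 372 to 380 in GFPmed and 332 to 491 in GFPhi. None of 4 tested B cell markers, 6 dendritic or myeloid markers and 2 erythroid markers passed in limma, with 0, 0 and 1 of them at an unadjusted p under 0.05 and 0 in limma-voom on solved reads. Over all 6, 8 and 3 of these markers in the table, the summed TPM overlapped between GFPlo and GFPhi (B cell 20.6 to 28.8 and 11.7 to 31.1, myeloid 82.2 to 103.9 and 91.7 to 98.9, erythroid 3.09 to 4.57 and 4.07 to 9.09). Of 3 tested thymic epithelial markers, Epcam, which T cells can also express, was higher (though not without GFPhi replicate 3), and the summed TPM of the 5 in the table was 3.86 to 8.96 in GFPlo, 6.22 to 9.21 in GFPmed and 10.3 to 13.2 in GFPhi. No marker of these lists was at 0 in every sample. The part of these cells in the results on the members was not tested, and in these bulk samples fewer cells of a type and less RNA per cell cannot be told apart.

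The promoters of the members that passed are shown because those members move together or, for the lactate transporters, apart. The RefSeq promoter table (GRCm38.p6, 250 bases before to 50 after a start) held 43 windows for 30 of the 34 members. It held no entry for Myc, Slc2a3, Slc7a5 and Slc1a5. Where a gene had several windows, the one with most annotated transcript starts is shown. The Pgam1 window, its only one, holds no annotated transcript start and ends just before the annotated start of the gene. Each line runs 5′ to 3′ on the gene's strand, and capitals mark the E-box core CACGTG, to which MYC-MAX can bind, and the forms of the hypoxia response core, ACGTG and GCGTG, on either strand (CACGT and CACGC are their reverse complements).
Slc16a3 (chr11:120948817-120949116, plus strand): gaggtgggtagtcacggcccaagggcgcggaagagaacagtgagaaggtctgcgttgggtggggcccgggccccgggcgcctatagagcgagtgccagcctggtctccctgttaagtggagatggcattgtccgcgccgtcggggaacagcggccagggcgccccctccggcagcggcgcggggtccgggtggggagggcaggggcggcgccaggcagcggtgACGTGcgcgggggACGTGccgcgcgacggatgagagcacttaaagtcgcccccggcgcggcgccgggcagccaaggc
Slc16a1 (chr3:104638414-104638713, plus strand): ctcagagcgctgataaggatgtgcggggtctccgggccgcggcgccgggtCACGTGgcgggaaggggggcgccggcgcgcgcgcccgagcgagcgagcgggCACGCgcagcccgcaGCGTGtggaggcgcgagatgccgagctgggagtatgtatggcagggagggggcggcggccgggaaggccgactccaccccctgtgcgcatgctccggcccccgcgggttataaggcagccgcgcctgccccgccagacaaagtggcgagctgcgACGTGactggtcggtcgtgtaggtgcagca
Aldoa (chr7:126799129-126799428, minus strand): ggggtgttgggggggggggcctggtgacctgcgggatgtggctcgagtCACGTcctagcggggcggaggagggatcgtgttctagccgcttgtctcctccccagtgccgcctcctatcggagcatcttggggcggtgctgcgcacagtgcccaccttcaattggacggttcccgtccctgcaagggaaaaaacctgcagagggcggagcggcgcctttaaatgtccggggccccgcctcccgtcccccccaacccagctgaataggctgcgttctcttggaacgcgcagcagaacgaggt
Pgam1 (chr19:41911621-41911920, plus strand): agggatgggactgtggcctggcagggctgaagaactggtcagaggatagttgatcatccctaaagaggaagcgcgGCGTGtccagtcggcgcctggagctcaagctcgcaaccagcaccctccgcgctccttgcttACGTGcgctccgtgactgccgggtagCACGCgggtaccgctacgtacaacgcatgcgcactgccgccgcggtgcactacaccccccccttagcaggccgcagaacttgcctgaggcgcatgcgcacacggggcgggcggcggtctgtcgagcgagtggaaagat
Pdk1 (chr2:71872974-71873273, plus strand): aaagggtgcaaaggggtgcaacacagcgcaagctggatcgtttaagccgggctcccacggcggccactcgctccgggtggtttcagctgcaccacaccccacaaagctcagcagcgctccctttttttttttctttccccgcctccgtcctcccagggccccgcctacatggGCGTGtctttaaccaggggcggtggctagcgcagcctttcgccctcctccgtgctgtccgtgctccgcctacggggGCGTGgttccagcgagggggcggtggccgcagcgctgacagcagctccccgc
Tfrc (chr16:32608872-32609171, plus strand): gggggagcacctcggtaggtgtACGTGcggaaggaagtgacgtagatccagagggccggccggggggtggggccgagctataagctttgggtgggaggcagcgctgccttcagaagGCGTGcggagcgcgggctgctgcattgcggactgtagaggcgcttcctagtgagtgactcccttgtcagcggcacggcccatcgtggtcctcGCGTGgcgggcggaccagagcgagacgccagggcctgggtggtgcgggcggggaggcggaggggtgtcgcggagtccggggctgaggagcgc
The Slc16a1 window holds CACGTG, and the other 5 windows do not. The Slc16a3 window, of the gene that rose, holds ACGTG at 2 places. Of the 5 genes that fell and have a window (Slc2a3 has none), Slc16a1, Aldoa, Pgam1 and Tfrc hold ACGTG. Pdk1 holds only GCGTG, at 2 places. Over all 43 members' windows, 14.0% (6) hold CACGTG, 53.5% (23) ACGTG and 55.8% (24) GCGTG on either strand. Over all 32851 windows in the table the shares are 7.15%, 19.6% and 32.4%. The members were picked as genes of MYC-driven growth and glycolysis, so their shares say nothing about the differences between the groups. Every CACGTG also holds an ACGTG, and the table includes genes that were not tested here, so the shares are descriptions and not sites.

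The lactate transporters moved in opposite directions. Slc16a3, on chromosome 11 from 120948480 to 120960868 of GRCm38, had 3.59, 4.46 and 3.24 TPM in the GFPlo samples, 3.85, 3.85 and 5.0 TPM in GFPmed and 10.6, 18.7 and 12.4 TPM in GFPhi. Each GFPhi sample lay above every other sample, and GFPlo and GFPmed overlapped. The rise from GFPlo to GFPhi was 1.61 on the log2 scale (SE 0.24, 95% interval 1.06 to 2.17, adjusted p = 0.0107, limma), and it passed with each sample left out in turn. With only the GFPhi and GFPlo samples in the fit, its adjusted p was 0.0505. Slc16a1, on chromosome 3 from 104638668 to 104658462, had 26.6, 31.4 and 26.5 TPM in the GFPlo samples, 26.9, 24.9 and 23.5 TPM in GFPmed and 17.1, 18.1 and 13.7 TPM in GFPhi. All 3 GFPhi samples lay below the other 6, while GFPmed reached into the range of GFPlo. Slc16a1 fell by 0.76 on the log2 scale from GFPlo to GFPhi (SE 0.13, adjusted p = 0.0202, limma), a call that was lost without GFPlo replicate 1, 2 or 3 or GFPhi replicate 3 (adjusted p between 0.0508 and 0.0876), with quantile normalization (0.0593) and with only the 2 groups compared (0.0852).

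In reads per kilobase of exon, scaled to library depth, the scale on which levels of different genes are compared here, Slc16a1 stayed the more abundant lactate transporter, with 21.8 ± 2.19 in GFPlo and 12.7 ± 1.71 in GFPhi (SD, n = 3), against 0.858 ± 0.145 and 3.18 ± 0.844 for Slc16a3. The ratio of Slc16a3 to Slc16a1 on that scale was 0.0399, 0.0419 and 0.036 in GFPlo, 0.0424, 0.0458 and 0.0628 in GFPmed and 0.182, 0.304 and 0.267 in GFPhi. Every GFPhi sample was above every sample of the other groups. That order follows from the levels of Slc16a3 and Slc16a1 given above and is not a further result.

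**Figure D2:**
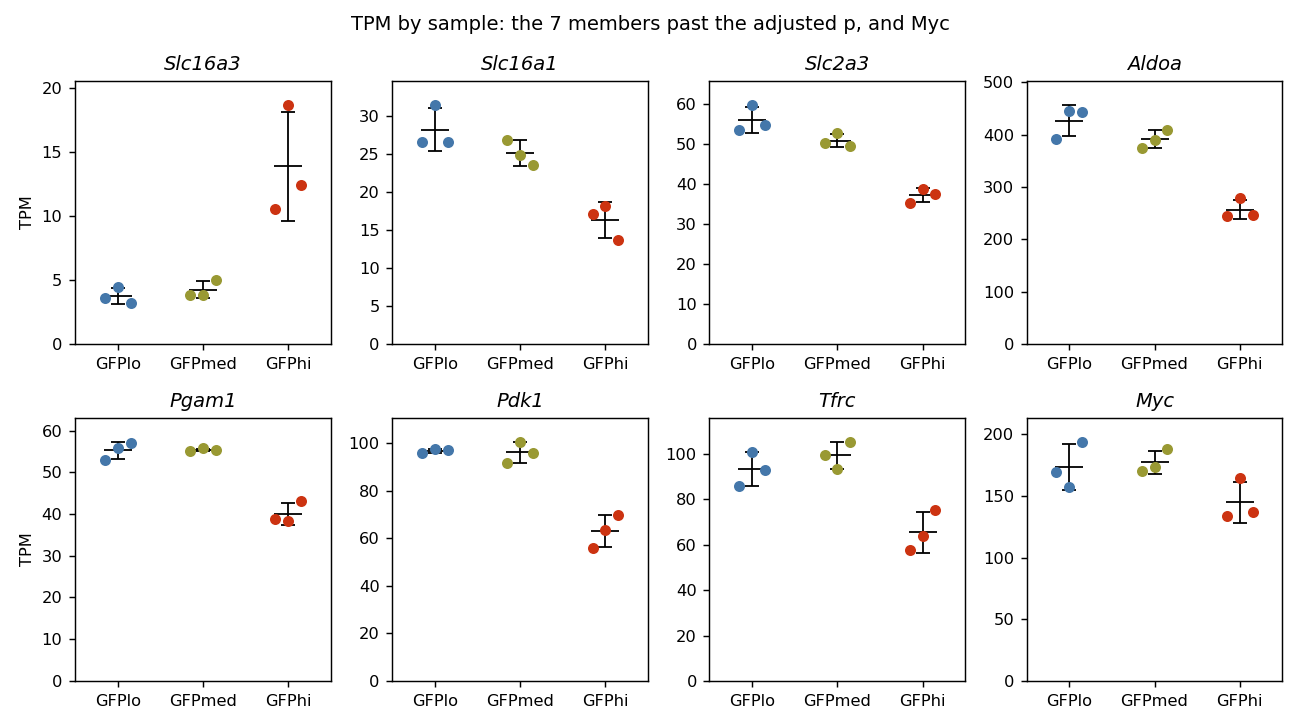
TPM (y axis, from 0) in each of the 9 samples (points, 3 per group on the x axis) for the 7 members past the adjusted p between GFPhi and GFPlo and for Myc, with the group mean and SD (bars). In all 7 members the GFPhi points stand apart from GFPlo and GFPmed, above them for Slc16a3 (10.6 to 18.7 TPM) and below them for the rest. The Myc panel shows GFPhi overlapping GFPlo and lying below GFPmed.

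Of the glucose transporters, Slc2a3 (GLUT3), on chromosome 6 from 122727809 to 122801640, had 53.6, 59.7 and 54.7 TPM in the GFPlo samples, 50.2, 52.7 and 49.6 TPM in GFPmed and 35.3, 38.7 and 37.5 TPM in GFPhi. The 3 groups did not overlap: GFPhi was lowest and GFPmed lay just under GFPlo. Slc2a3 fell by 0.58 from GFPlo to GFPhi (SE 0.07, adjusted p = 0.00582, limma), also with any 1 sample left out. Slc2a1 (GLUT1), the transporter best known from activated T cells, had 9.49, 10.8 and 11 TPM in the GFPlo samples, 9.66, 9.37 and 11.4 TPM in GFPmed and 6.76, 7.97 and 7.63 TPM in GFPhi. Its GFPhi samples also lay below all others, but the log2 fold change of -0.44 (95% interval -0.77 to -0.10) did not pass (adjusted p = 0.196). Per kilobase of exon, Slc2a3 was the more abundant in every sample, and the ratio of Slc2a3 to Slc2a1 was 2.07, 2.02 and 1.83 in GFPlo, 1.91, 2.06 and 1.6 in GFPmed and 1.91, 1.78 and 1.81 in GFPhi, so that the groups overlapped in it.

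Among the 14 glycolytic enzymes and regulators, 2 fell, 0 rose and 12 did not pass. The log2 fold changes ran from -0.73 to 0.32 and 11 of 14 were negative. Aldoa, whose product aldolase A cleaves fructose 1,6-bisphosphate, lies on chromosome 7 from 126795234 to 126800751 and had 392, 446 and 442 TPM in the GFPlo samples, 374, 390.0 and 409 TPM in GFPmed and 245, 278 and 247 TPM in GFPhi. GFPhi lay below both other groups, which overlapped. Aldoa fell by 0.73 from GFPlo to GFPhi (SE 0.08, 95% interval -0.91 to -0.55, adjusted p = 0.00211, limma), the smallest adjusted p of the 34 members, and it passed with each sample left out. An exon of Aldoa overlaps one of Fam57b on the opposite strand, and the library kit does not keep strand, so reads in that stretch cannot be told apart. The deposited values for Aldoa carry 2 gene identifiers, and the position and exons used here are those of the first. Pgam1, the phosphoglycerate mutase gene, lies on chromosome 19 from 41911923 to 41918660 and had 53, 55.8 and 57.1 TPM in the GFPlo samples, 55.1, 55.7 and 55.3 TPM in GFPmed and 38.7, 38.3 and 43.1 TPM in GFPhi. GFPmed lay within the range of GFPlo, and all GFPhi samples were lower than both. Its fall of 0.46 (SE 0.07, adjusted p = 0.0136, limma) did not pass without GFPlo replicate 2 or 3 (adjusted p = 0.0646 and 0.0616), with only the 2 groups compared (0.0742), under eBayes without the trend (0.0814) or in limma-voom with size factors (0.516), and it passed in 15 of 21 alternatives. A processed copy, Pgam1-ps1, took 1.3% to 7.04% of the reads of the pair, and reads that match both were not counted.

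Other glycolytic genes showed smaller differences. Pgk1, which makes the first ATP of the pathway, averaged 50.3 ± 1.57 TPM (SD, n = 3) in GFPlo, 51.9 ± 2.04 in GFPmed and 40.4 ± 1.3 in GFPhi. Its GFPhi samples lay below all others, and its log2 fold change of -0.31 just missed the threshold (adjusted p = 0.0516, limma). Gapdh, between aldolase and Pgk1 in the pathway, had 1489.6 ± 147 TPM in GFPlo and 1206 ± 86.1 TPM in GFPhi without overlap and did not pass (-0.30, SE 0.10, adjusted p = 0.191, limma). Gpi1 and Pfkp also lay lower in all GFPhi samples, with log2 fold changes of -0.16 and -0.21 and adjusted p-values of 0.219 and 0.235.

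In the other 8 enzymes or regulators the GFPhi samples did not all lie below GFPlo. Eno1 (enolase 1) had 1975, 2284 and 2206 TPM in the GFPlo samples, 2070.1, 2283 and 2099.8 TPM in GFPmed and 1662, 2259.9 and 1705 TPM in GFPhi. GFPhi replicate 2 stood within the range of GFPlo and the other GFPhi samples below it, and the log2 fold change of -0.21 did not pass (adjusted p = 0.542, limma). Pkm, the pyruvate kinase gene, had 532 ± 30.4 TPM and 509 ± 81.6 TPM, and its log2 fold change of -0.07 turned to 0.01 with median-of-ratios scaling. Tpi1 differed by -0.01 (95% interval -0.38 to 0.37, and 0.08 with median-of-ratios scaling), but 5.62% to 20.4% of the reads of its family fell on 6 near-identical copies, so its level is uncertain. Hk1, the main hexokinase gene here, had 24 ± 2.75 TPM in GFPlo and 25.9 ± 0.938 TPM in GFPhi, and Hk2 stayed at 0.696 to 1.25 TPM in all samples. Per kilobase of exon Hk1 exceeded Hk2 by 26.5 to 52.9 times. Of the phosphofructokinase subunits, Pfkl and Pfkm had log2 fold changes of -0.10 and 0.13. Pfkfb3, whose product makes the activator fructose 2,6-bisphosphate, had 8.41, 8.11 and 7.93 TPM in the GFPlo samples, 7.69, 6.84 and 10.1 TPM in GFPmed and 11.4, 9.13 and 10.9 TPM in GFPhi. Its GFPhi samples lay above the GFPlo samples, and GFPmed reached both, with a log2 fold change of 0.32 that did not pass (adjusted p = 0.496, limma).

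Together, the 15 member genes for glycolytic enzymes, hexokinase to lactate dehydrogenase, took 0.644% ± 0.0377 of all reads on genes in GFPlo (SD, n = 3). In GFPmed they took 0.632% ± 0.0267 and in GFPhi 0.560% ± 0.0383. The highest GFPhi sample (0.603%) overlapped the lowest GFPlo sample (0.601%). Eno3, an enolase gene outside the members that rose from 12.9 TPM in GFPlo to 197 TPM in GFPhi, is not in this sum.

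All 3 genes that act on pyruvate had negative differences. Pdk1, on chromosome 2 from 71873224 to 71903858, had 95.9, 97.7 and 97 TPM in the GFPlo samples, 91.7, 101 and 95.9 TPM in GFPmed and 56, 63.4 and 69.7 TPM in GFPhi. The range of GFPmed held that of GFPlo, and every GFPhi sample was below both. Pdk1 fell by 0.62 (SE 0.09, 95% interval -0.82 to -0.42, adjusted p = 0.00795, limma) and passed with each sample left out. Ldha and Ldhb, the genes of the muscle and heart subunits of lactate dehydrogenase, had 1067 ± 70.5 and 91.2 ± 8.48 TPM in GFPlo and 897 ± 65.4 and 65.7 ± 9.38 TPM in GFPhi. Both lay lower in all GFPhi than in all GFPlo samples and neither passed (log2 fold changes -0.25 and -0.47, adjusted p = 0.131 and 0.105, limma). The ratio of Ldha to Ldhb per kilobase of exon was 2.56, 2.37 and 2.58 in GFPlo, 2.97, 2.55 and 2.9 in GFPmed and 3.19, 2.76 and 2.85 in GFPhi. It was higher in every GFPhi than in every GFPlo sample, and GFPmed overlapped both.

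No transcription factor member passed. Myc, on chromosome 15 from 61985391 to 61990374, had 169, 157 and 194 TPM in the GFPlo samples, 170.0, 173 and 188 TPM in GFPmed and 133, 164 and 137 TPM in GFPhi. GFPhi replicate 2 lay within the GFPlo range and the other 2 GFPhi samples below it, and the log2 fold change was -0.26 (95% interval -0.51 to -0.01, adjusted p = 0.328, limma), between -0.35 and -0.17 over all alternatives. Against GFPmed, all GFPhi samples of Myc lay lower, without passing (-0.29, 95% interval -0.54 to -0.05, adjusted p = 0.342, limma). Its dimer partner Max had 38.1 ± 1.04 TPM in GFPlo and 37.7 ± 5.06 TPM in GFPhi, and its log2 fold change of -0.02 changed sign with median-of-ratios scaling (0.06). Mycn was near the detection limit, with 3 to 25 reads per sample. Hif1a had 41.5, 39.9 and 41.5 TPM in the GFPlo samples, 45.5, 41.8 and 45.4 TPM in GFPmed and 47.9, 53.2 and 52.6 TPM in GFPhi. Its samples were ordered GFPlo, GFPmed, GFPhi without overlap, with a log2 fold change between the ends of 0.32 (95% interval 0.14 to 0.49) that missed the threshold (adjusted p = 0.0679, limma). Exons of Hif1a overlap those of a gene on its own strand and of an antisense gene.

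The amino-acid transporter members did not pass either. Slc38a2 (SNAT2), a carrier of small neutral amino acids, had 235, 252 and 258 TPM in the GFPlo samples, 258, 229 and 251 TPM in GFPmed and 184, 179.7 and 216 TPM in GFPhi. All GFPhi samples lay below the rest, with a log2 fold change of -0.37 (adjusted p = 0.0647, limma). Slc7a5 and Slc3a2 encode the light and heavy chain of the leucine carrier LAT1-CD98. Slc7a5 had 31.8, 34.2 and 31.4 TPM in the GFPlo samples, 38.2, 28.9 and 31.6 TPM in GFPmed and 26, 31.2 and 24 TPM in GFPhi, and Slc3a2 had 88.4, 96.7 and 96.1 TPM in the GFPlo samples, 99.4, 109 and 89.7 TPM in GFPmed and 102, 123 and 105 TPM in GFPhi. Slc7a5 lay lower and Slc3a2 higher in all GFPhi than in all GFPlo samples, without passing (log2 fold changes -0.26 and 0.22, adjusted p = 0.478 and 0.384, limma). The ratio of Slc3a2 to Slc7a5 per kilobase of exon was 1.42, 1.44 and 1.56 in GFPlo, 1.33, 1.92 and 1.44 in GFPmed and 1.99, 2.0 and 2.22 in GFPhi, higher in each GFPhi sample than in any other. Slc1a5, the glutamine carrier ASCT2, had 168 ± 11.1 TPM in GFPlo and 167 ± 34.4 in GFPhi, and its log2 fold change was -0.02 (95% interval -0.33 to 0.29), or 0.06 with median-of-ratios scaling.

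**Figure D3:**
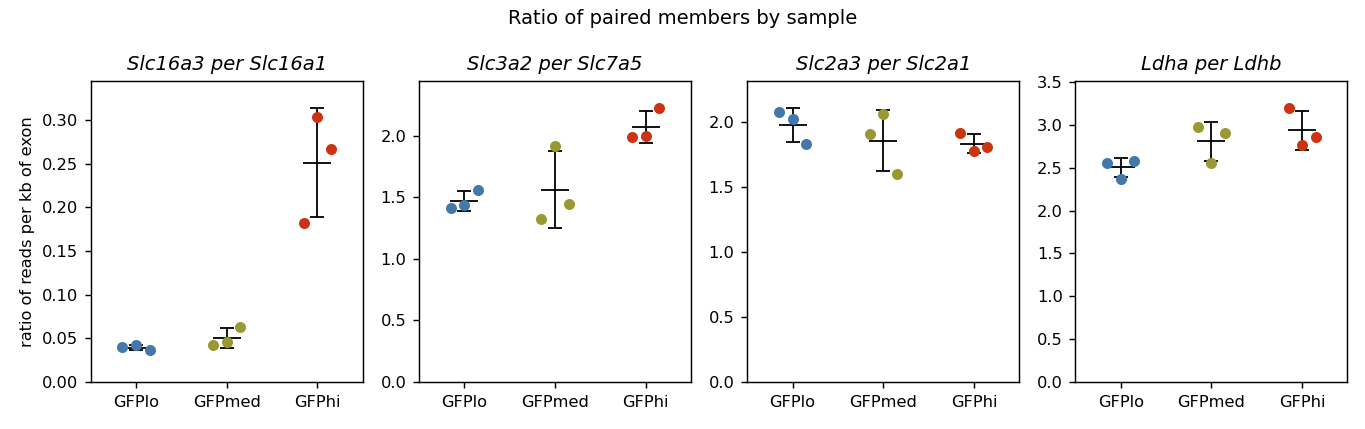
Ratio of paired members in reads per kilobase of exon (y axis, from 0, a scale of its own in each panel) in each of the 9 samples (points, by group on the x axis) with the group mean and SD (bars). The ratio of Slc16a3 to Slc16a1 is 0.182 to 0.304 in GFPhi and at most 0.0628 elsewhere, which follows from the opposite moves of these genes. The ratio of Slc2a3 to Slc2a1 overlaps between all groups.

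Of the remaining members, Tfrc, the transferrin receptor that brings in iron, lies on chromosome 16 from 32608920 to 32632794 and had 85.9, 101 and 93 TPM in the GFPlo samples, 99.3, 93.6 and 105 TPM in GFPmed and 57.5, 63.7 and 75.1 TPM in GFPhi. GFPhi lay below both other groups, which overlapped. Its fall of 0.51 (SE 0.11, adjusted p = 0.0487, limma) stood at the threshold and did not pass when any 1 sample other than GFPhi replicate 3 was left out (adjusted p between 0.0715 without GFPlo replicate 1 and 0.173 without GFPlo replicate 2). Tfrc passed in 6 of 21 alternatives and also missed with a pseudocount of 0.1 (0.0505), no filter (0.0631), eBayes without the trend (0.132), only the 2 groups compared (0.142), the replicate block (0.0609) and limma-voom with size factors (0.354). Cad, the gene of the enzyme that starts pyrimidine synthesis, had 94.3, 100.3 and 95.3 TPM in the GFPlo samples, 93.2, 93.4 and 96.6 TPM in GFPmed and 59.2, 77.8 and 74.6 TPM in GFPhi. It was lower in every GFPhi sample than in any other sample and missed the threshold (-0.46, SE 0.10, adjusted p = 0.0537, limma). Odc1, ornithine decarboxylase, which starts polyamine synthesis, had 74.4, 103 and 83.1 TPM in the GFPlo samples, 126, 122 and 113 TPM in GFPmed and 109, 110.2 and 126 TPM in GFPhi. Its GFPmed and GFPhi samples all lay above GFPlo and overlapped each other, without passing (GFPhi against GFPlo 0.41, adjusted p = 0.145, limma). Mtor and Rptor, the kinase and the raptor subunit of mTORC1, differed by 0.01 (95% interval -0.25 to 0.26) and 0.01 (-0.43 to 0.44).

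The medium group asked how these differences were spread over the GFP range. Between GFPmed and GFPlo, 0 members were called in either direction in limma, against 0.0554% of all genes higher and 0.00326% lower, and 0 passed at the adjusted p alone, against 0.0717% and 0.00326%, and 1 member (Odc1, log2 fold change 0.48, adjusted p = 0.605) had an unadjusted p under 0.05. In limma-voom on solved reads 0 members passed as well. Hif1a and Odc1 were higher and Slc2a3 was lower in every GFPmed than in every GFPlo sample, against 5.55% and 4.7% of all genes. The median over the members was -0.0090, and over all genes -0.0049.

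Between GFPhi and GFPmed, 1 member was called higher (Slc16a3, 1.48, SE 0.24, adjusted p = 0.0294) and 0 lower in limma, against 0.541% and 0.15% of all genes. At the adjusted p alone 1 was higher and 5 were lower, against 0.899% and 0.609%. The 5 were Aldoa (-0.61, adjusted p = 0.0104), Pdk1 (-0.61, 0.0158), Pgam1 (-0.46, 0.0253), Slc2a3 (-0.44, 0.0348) and Tfrc (-0.60, 0.046), and Slc16a1 did not pass (-0.60, 0.0867). Without overlap, 14 members were lower and 2 higher, against 9.41% and 7.11% of all genes. These calls rested on few samples: with any 1 of the 9 samples left out, 0 to 3 members were lower and 0 or 1 higher at the adjusted p, and Slc16a3 passed only without GFPhi replicate 1. This comparison shares its GFPhi samples with the one between the ends. In GFPmed the 7 members past the adjusted p between the ends stood between -0.16 and 0.14 from GFPlo on the log2 scale.

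**Figure D4:**
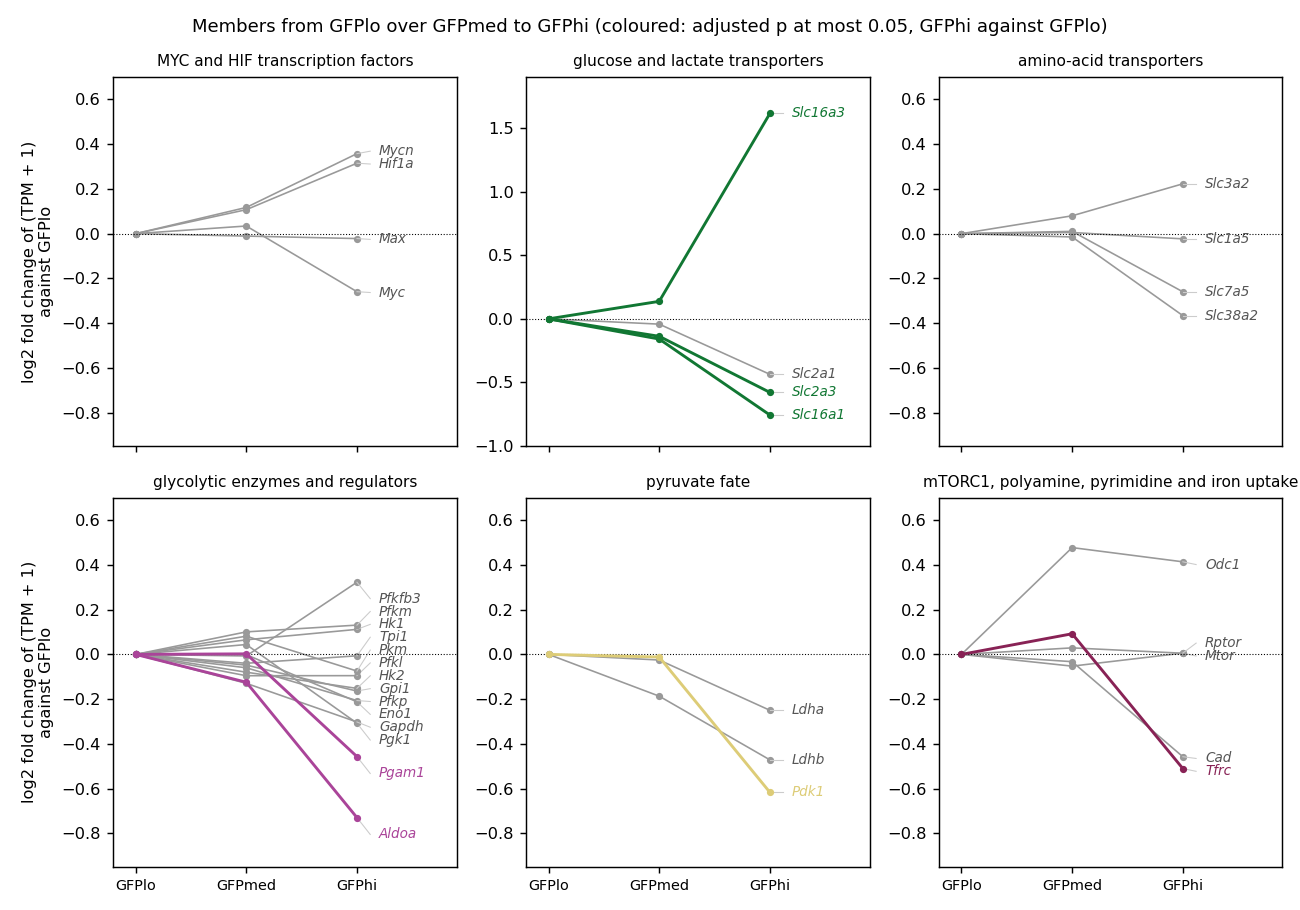
Log2 fold change of (TPM + 1) against GFPlo (y axis, wider in the panel of glucose and lactate transporters) in GFPlo, GFPmed and GFPhi (x axis) for the 34 members, 1 panel per role, with lines joining group means of 3 samples each. Coloured lines are the 7 members past the adjusted p between GFPhi and GFPlo; they stay within -0.16 and 0.14 at GFPmed and separate at GFPhi, while Odc1 (grey) has its difference at GFPmed.

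Other genes of the same pathways, in lists that hold none of the 34, were described in the same fit. Counts of these lists are at the adjusted p alone, between GFPhi and GFPlo. By that rule 2.38% of all genes tested were higher and 1.51% lower, so a count near those shares is no result about its list. Of 18 tested glycolysis genes outside the members, 1 was higher and 0 lower. It was Eno3, enolase 3, the isoform known from muscle, on chromosome 11 from 70657202 to 70662513, with 10.8, 12.5 and 15.3 TPM in the GFPlo samples, 24.6, 18.9 and 17.5 TPM in GFPmed and 167, 238 and 187 TPM in GFPhi. Every GFPhi sample stood above all other samples, a 15.3-fold rise from GFPlo (log2 fold change 3.84, SE 0.19, adjusted p = 6.49e-05, limma) that passed in all 21 alternatives. Relative to Eno1, a member, Eno3 stood per kilobase of exon at 0.0113, 0.0112 and 0.0143 in GFPlo, 0.0245, 0.017 and 0.0171 in GFPmed and 0.207, 0.217 and 0.226 in GFPhi. Eno1 thus stayed the more abundant enolase gene in every sample.

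Of 10 tested genes of the MYC network, 2 were higher and 0 lower. Mxd1 encodes a partner of MAX that competes with MYC and represses E-box genes, and it had 24.5, 21.9 and 25.9 TPM in the GFPlo samples, 32.9, 30.7 and 26.5 TPM in GFPmed and 77.3, 72.7 and 76 TPM in GFPhi. GFPhi stood apart from both other groups (GFPhi against GFPlo 1.61, SE 0.10, adjusted p = 0.000252, limma; all 21 alternatives passed). The other was Mxd4, of the same family, with 106 ± 3.92 TPM in GFPlo and 134 ± 4.88 TPM in GFPhi (0.34, adjusted p = 0.0225, limma), named after its value was seen. Its call was lost with the replicate block, eBayes without the trend, only the 2 groups compared, quantile normalization, limma-voom with size factors, and without GFPlo replicate 2 or 3, GFPmed replicate 2 or GFPhi replicate 2 or 3, where Mxd1 alone passed. Of 26 ribosome biogenesis genes associated with MYC, 7 were lower and 0 higher, with log2 fold changes of the 7 between -0.72 (Rrs1) and -0.30 (Bop1). Their median over the 26 was -0.35, against -0.09 for all genes. With median-of-ratios scaling 1 of the 10 MYC network genes was higher and 0 of the 26 passed, and without any 1 sample between 1 and 4 of the 26 did, with 1 without GFPlo replicate 2 or 3.

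In polyamine and nucleotide synthesis, 7 of 30 genes were higher and 4 lower. Sat1 and Smox, the genes of the polyamine-degrading enzymes spermidine/spermine acetyltransferase and spermine oxidase, both rose. Sat1 had 117, 118 and 122 TPM in the GFPlo samples, 151, 148 and 184 TPM in GFPmed and 301, 354 and 340.0 TPM in GFPhi, and Smox had 10.6, 9.66 and 8.92 TPM in the GFPlo samples, 11.3, 12.2 and 11.9 TPM in GFPmed and 24.3, 29.2 and 26.8 TPM in GFPhi. In both genes GFPhi lay above all other samples (GFPhi against GFPlo 1.47, SE 0.10, adjusted p = 0.000282, and 1.37, SE 0.12, adjusted p = 0.000867, limma), and all 21 alternatives passed. Rrm2, the small subunit of ribonucleotide reductase and also a gene of the cell cycle list, had the largest difference (2.57, SE 0.23, adjusted p = 0.00113), with 19.5, 22.5 and 25.3 TPM in the GFPlo samples, 68.4, 44 and 77 TPM in GFPmed and 111, 172 and 136 TPM in GFPhi. Sms, the spermine synthase gene, was also higher (0.63, adjusted p = 0.0225, limma). So were the nucleotide synthesis genes Ctps2 (0.83, adjusted p = 0.0211), Rrm1 (0.73, adjusted p = 0.0146) and Tyms (0.62, adjusted p = 0.025), all from limma. Tyms is also a gene of the cell cycle list, and all of these were named after their values were seen. The 4 lower genes, named after their values were seen, were Azin1, the antizyme inhibitor that keeps ornithine decarboxylase active (-0.55, adjusted p = 0.00632), and the purine synthesis genes Gart (-0.43, adjusted p = 0.0103), Impdh1 (-0.50, adjusted p = 0.0118) and Prps2 (-0.56, adjusted p = 0.0313), all from limma. With median-of-ratios scaling, 3 of the 30 were higher and 0 lower. With each sample left out, 3 to 6 were higher and 2 to 4 lower, with the fewest higher (3) without GFPlo replicate 3 or GFPhi replicate 3, 4 higher without GFPlo replicate 2 or GFPhi replicate 2, and 2 lower without GFPlo replicate 2 or GFPhi replicate 3.

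Of 40 tested mTORC1 regulators and effectors, 3 were higher and 0 lower. Castor1, an arginine sensor that restrains mTORC1, had 8.04, 8.65 and 4.63 TPM in the GFPlo samples, 11, 5.39 and 10.4 TPM in GFPmed and 20.2, 25.1 and 20.7 TPM in GFPhi (1.54, SE 0.30, adjusted p = 0.033, limma), a call that was lost in 9 of 21 alternatives. Tfeb, the factor for lysosome genes that mTORC1 holds in the cytoplasm, had 2.15, 1.41 and 1.74 TPM in the GFPlo samples, 3.12, 3.1 and 3.6 TPM in GFPmed and 5.23, 6.5 and 6.04 TPM in GFPhi (1.33, SE 0.20, adjusted p = 0.0106, limma), and did not pass without GFPlo replicate 2 or GFPhi replicate 3 (adjusted p = 0.0521 and 0.0515) or with only the 2 groups compared (0.0632). The third was Sesn3, a sestrin (0.88, adjusted p = 0.0299), and it was named after its value was seen. With median-of-ratios scaling 1 of the 40 passed, and with each sample left out 0 to 2 did, with 0 without GFPlo replicate 2 or GFPhi replicate 3 and 1 without GFPlo replicate 1 or 3 or GFPhi replicate 2. In Castor1 and Tfeb every GFPhi sample lay above all other samples.

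In the remaining lists, 3 of 18 pentose phosphate, serine and one-carbon genes were lower (Psat1 -0.78, adjusted p = 0.00246; Shmt2 -0.56, adjusted p = 0.0204; Mthfd1 -0.57, adjusted p = 0.0179) and 2 of 15 iron genes were lower (Slc39a14 -0.79, adjusted p = 0.0149; Pcbp2 -0.40, adjusted p = 0.0478), all from limma and named after their values were seen. With median-of-ratios scaling 0 genes of either list passed. The serine and one-carbon count was 1 without GFPlo replicate 2 or 3 and 2 or 3 without any other sample. The iron count was 0 without GFPlo replicate 1, GFPlo replicate 2 or GFPhi replicate 3 and 1 without any other sample. Psat1 acts in the synthesis of serine, and Shmt2 passes carbon of serine to folate in mitochondria. Of 12 genes for pyruvate entry to mitochondria, 20 other transporters of glucose, lactate and amino acids and 19 hypoxia genes, 0 passed in limma, with 3, 2 and 6 at an unadjusted p under 0.05 and 1, 2 and 2 past the adjusted p in limma-voom with library totals.

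**Figure D5:**
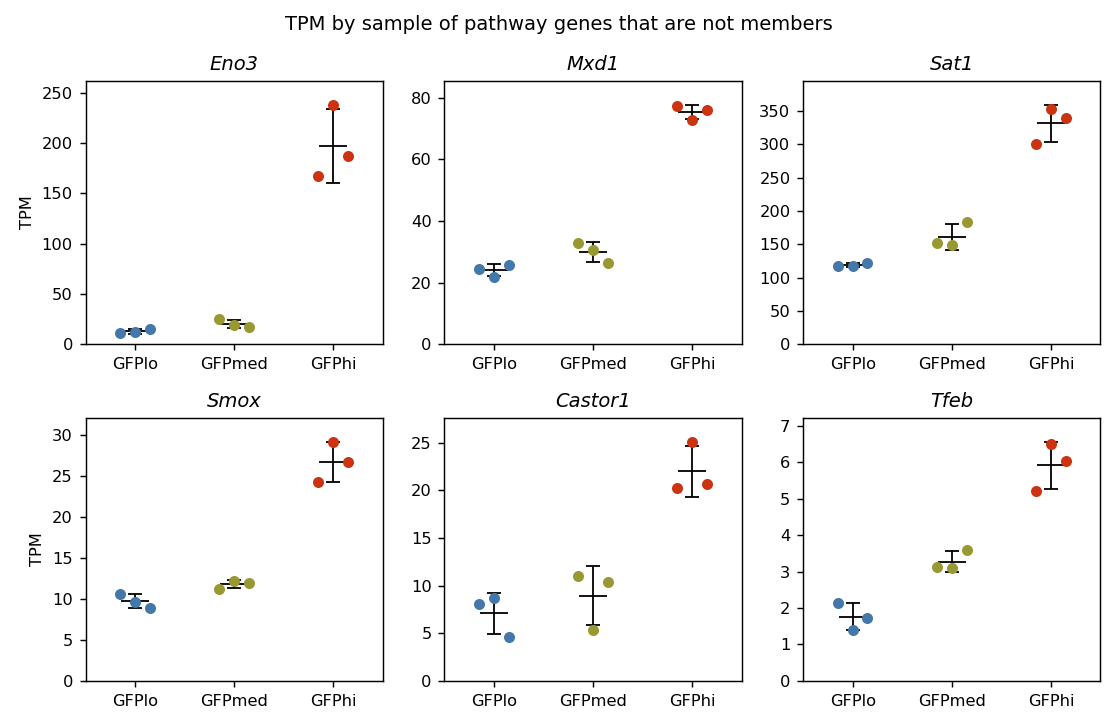
TPM (y axis, from 0) in each of the 9 samples (points, 3 per group on the x axis) for Eno3, Mxd1, Sat1, Smox, Castor1 and Tfeb, genes of the same pathways outside the 34, with the group mean and SD (bars). All GFPhi points lie above the GFPlo and GFPmed points, most widely for Eno3 (167 to 238 TPM against at most 24.6 TPM).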

How the data were processed

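RNA of 10000 sorted cells per sample was amplified with SMART-seq v4 and sequenced from NexteraXT libraries, which keep no strand. The authors trimmed reads, aligned them with STAR 2.7.11b to GRCm38, removed identical duplicates, counted uniquely mapped reads per GENCODE gene and deposited TPM per sample. The authors' mean normalized signal per group (made by the authors with DESeq2 1.34.0) was deposited too and served here only to solve each sample's whole reads (41578 genes, 100% of the values within 0.05 of a whole number). Their fold changes, adjusted p-values and call flags were not used. The span behind TPM includes introns, so levels of different genes are given as solved reads per kilobase of exon (GENCODE M21, the same build but an earlier release than the authors') scaled to library depth.

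Groups and replicate numbers came from the labels, with 0 sample columns unused. log2(TPM + 1) was fitted with limma 3.58.1 (R 4.3.3), eBayes with a trend, over all 9 samples and 30693 genes with at least 1 TPM in at least 3 samples, after a check on simulated data. p-values were Benjamini-Hochberg adjusted over all of these genes. Intervals from counts were not needed; reads were amplified without molecular identifiers. Alternatives were a pseudocount of 0.1, no filter or 5 TPM, median-of-ratios and quantile scaling, 2 groups only, no trend, a block for the replicate number, leaving out samples singly, no fold limit and limma-voom on solved reads; the 2 settings on genes at 10 TPM or more were chosen after seeing the data.

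All members were named. From each pathway list at most 4 genes were named, those with the largest change among genes called by both limits (log2 fold change of 1 or more in size, adjusted p of 0.05 or less); others are marked in the text. The members, lists and gene pairs were chosen with earlier results of these data known. Marker lists were used for SP4, double-positive, regulatory T, B, myeloid, epithelial, erythroid and cycling cells. An exon of another gene overlaps 11 of the 34 members, in 8 of them on the opposite strand only.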

Additional observations from a re-analysis of the deposited data

How the results depend on the processing

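Between GFPhi and GFPlo, the count of members called with a log2 fold change of 1 or more in size (1) was 0 with only the 2 groups compared and 7 with no limit on the fold change. The count higher at the adjusted p alone (1) was 0 with only the 2 groups compared and 2 with a filter of 5 TPM, with limma-voom and library totals, and with either setting on genes at 10 TPM or more. The count lower (6) was 0 with median-of-ratios scaling, 2 with limma-voom and size factors, 3 with only the 2 groups compared, and 13 with limma-voom and library totals or size factors of genes at 10 TPM or more, and it ran from 3 to 6 with each sample left out. It was 3 without GFPlo replicate 2 and without GFPlo replicate 3. Between GFPhi and GFPmed, the count called (1) was 0 with the replicate block, only the 2 groups compared, quantile normalization and median-of-ratios scaling, 6 with no limit on the fold change, and 0 to 1 with each sample left out. The count higher (1) was 0 in the same 4 settings, 2 with limma-voom and library totals or size factors of genes at 10 TPM or more, and 0 to 1 with each sample left out. The count lower (5) was 0 with median-of-ratios scaling, with eBayes without the trend and with limma-voom and size factors, 1 with only the 2 groups compared, 2 with the replicate block, 10 with limma-voom and library totals or size factors of genes at 10 TPM or more, and 0 to 3 with each sample left out. Between GFPmed and GFPlo the counts were 0 in all alternatives. The cause of these differences was not tested, except that fewer samples enter the fits with samples or groups left out.

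Log2 fold changes between GFPhi and GFPlo that changed sign were all of members that did not pass. With median-of-ratios scaling they were Max (0.062), Slc1a5 (0.062), Tpi1 (0.079) and Pkm (0.011), with limma-voom and size factors Max (0.055), Slc1a5 (0.056), Tpi1 (0.064) and Pkm (0.0073), and with scaling on genes at 10 TPM or more Tpi1 (0.013). With each sample left out, the values ran from -0.037 to 0.64 for Mycn, -0.11 to 0.078 for Max, -0.18 to 0.11 for Slc1a5, -0.13 to 0.14 for Tpi1, -0.20 to 0.0057 for Pkm, -0.057 to 0.073 for Mtor and -0.044 to 0.077 for Rptor. Of the values of single genes under an alternative, 853 kept their direction and side of the threshold, 113 lost the call, 31 gained it and 24 changed sign.

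The labels do not say what a replicate number marks, so the numbers were not taken as pairs. Deviations from the group mean correlated at 0.061 on average over 9 same-numbered pairs of different groups (0.012 to 0.225). These deviations cancel within each group, so the mean over 18 differently numbered pairs (-0.030) follows from the first and is no separate baseline. The correlations therefore cannot decide whether the numbers mark pairs. With the replicate block, 6 members were lower and 1 higher between GFPhi and GFPlo, with Ldhb passing and Tfrc not, and between GFPhi and GFPmed 2 were lower and 0 higher.

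The main limits are the scaling, on which the calls of the falls depend, the 3 samples per group, and the low counts of Slc16a3 in GFPlo (33 to 51 reads), Mycn (3 to 25 reads) and Hk2.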
